A study of Homo sapiens with 6 samples.

Results

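The genes described here make ribosomes: RNA polymerase I (Pol I), the enzyme that transcribes ribosomal RNA in the nucleolus, and the proteins that modify, cut and fold that RNA into the small and large ribosomal subunits. The members were 54 genes fixed by name, which were matched to Ensembl gene identifiers and all found among the 60604 genes of the tables. They were read in the human line AGS, which was established from a gastric adenocarcinoma, grown in DMEM with fetal bovine serum. There were 3 libraries from cells given 0.5 mM indomethacin for 24 h and 3 from control cells labelled with 0 mM, whose time in culture the labels do not give. Indomethacin is a non-steroidal anti-inflammatory drug that inhibits cyclooxygenases, and the series compared the transcripts of cells with and without it.

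A ribosome begins as a long precursor RNA made by Pol I, which starts at ribosomal DNA bound by UBTF and the SL1 complex and is brought there by RRN3. Small nucleolar RNAs (snoRNAs) then guide modification of the precursor. The box C/D class works with FBL, NOP56, NOP58 and SNU13 to methylate ribose, and the box H/ACA class works with DKC1, NHP2, NOP10 and GAR1 to make pseudouridine. The small subunit is carved out within a large particle named the SSU processome, the large subunit is assembled on its own set of factors, and both are finished in the cytoplasm. Growing and tumour cells make many ribosomes, and MYC is known to raise the transcription of many of these genes by binding the E-box CACGTG in their promoters.

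Total counts were between 17535435 and 20094302 in the indomethacin libraries and between 20983189 and 23221077 in the control libraries. Mitochondrially encoded genes took 16.7% to 19.7% of the counts with indomethacin and 22.8% to 26.8% in control. With libraries stripped of them and of small structured RNAs, 29 members were called lower and 7 higher, as with them. That fit called 5345 of 16947 genes lower and 5139 higher. The epithelial markers EPCAM, KRT8, KRT18 and KRT19 had group means of up to 1674 CPM (read counts scaled to the library's total with TMM factors), and KRT7 was low (lowest mean 0.820 CPM). EPCAM fell, with 190, 170 and 175 CPM in indomethacin libraries against 294, 278 and 285 CPM in control libraries (log2 fold change -0.68, edgeR adjusted p = 4.6e-05). KRT8 also fell, with 1204, 1147 and 1089 CPM with indomethacin against 1628, 1548 and 1846 CPM in control (-0.55, edgeR adjusted p = 0.0012), and the others did not pass. The part of these markers in the members' results was not tested. The mean of each leukocyte and endothelial marker was 0.257 CPM or less, with none tested. Of 4 fibroblast markers, COL1A1 rose, with 9.74, 11.1 and 9.25 CPM with indomethacin against 4.07, 6.44 and 4.27 CPM in control (log2 fold change 1.02, edgeR adjusted p = 0.00051). PDGFRB fell, with 0.143, 0.0497 and 0.120 CPM with indomethacin against 3.24, 2.13 and 2.20 CPM in control (-4.52, edgeR adjusted p = 1.7e-06). COL1A2 and COL3A1 were at or near 0 and were not tested. Fewer cells that make a transcript and less of it per cell cannot be told apart. No label states whether the replicates were independent cultures, so the p-values may reflect technical spread.

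Genes of ribosome biogenesis were mostly lower with indomethacin, by modest amounts, with a few that moved the other way. Of the 54 members, 29 fell and 7 rose at an adjusted p under 0.05, against a background of 31.0% of all 17200 genes tested called lower and 30.6% called higher. All 54 members passed the filter on low counts. The median log2 fold change of the members was -0.38, against 0.04 over all genes tested, and 42 of 54 members lay below 0, against 8285 of 17200 genes. A fall of 2-fold or more was seen in 8 members, against a background of 15.6% of all genes, and no member rose 2-fold. In 39 of the 54 members the 2 groups were apart, with no overlap, against 67.0% of all genes tested.

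**Figure D1:**
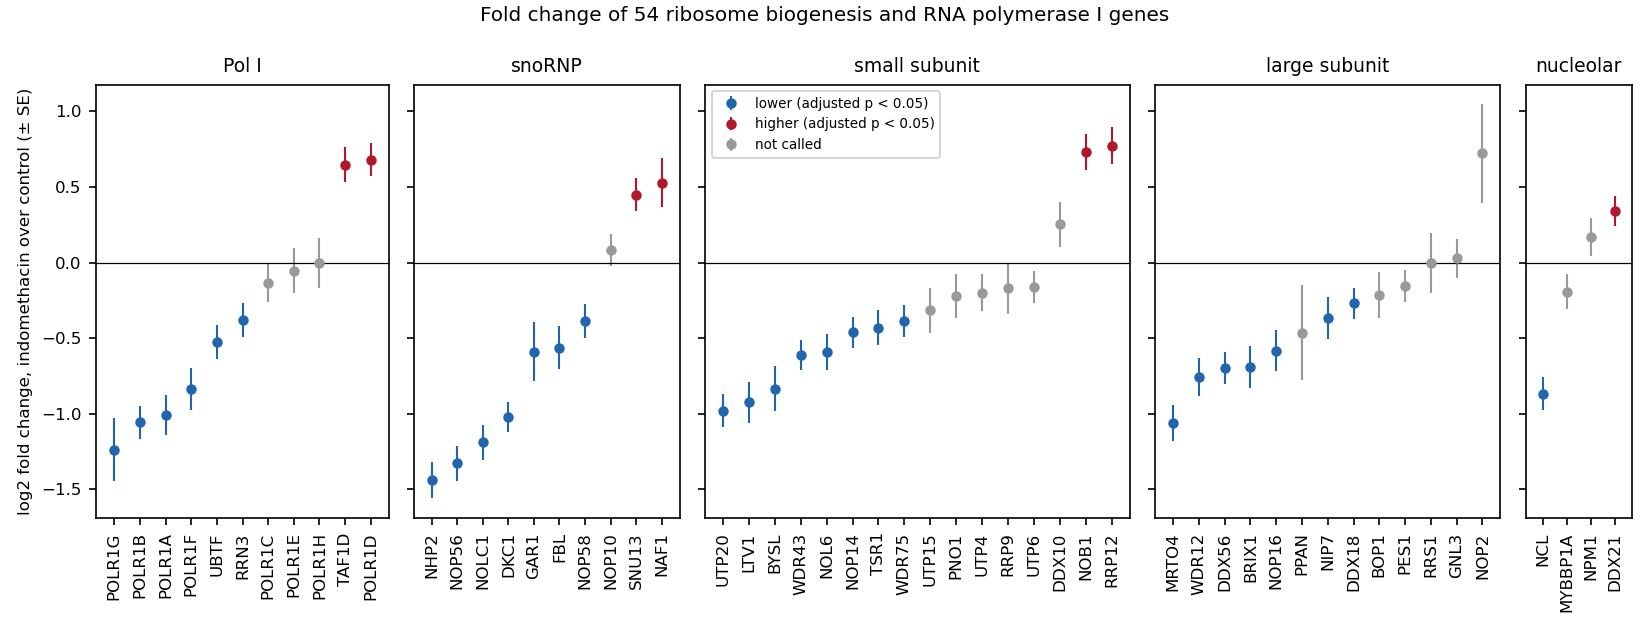
Log2 fold change of each of the 54 members (indomethacin over control, vertical axis, bars are the SE implied by edgeR's test statistic, n = 3 per group), ordered within 5 groups by role. Blue points fell, red points rose and grey points did not pass; the lowest is NHP2 at -1.44 and the highest called is RRP12 at 0.77.

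Together the members took 0.389%, 0.378% and 0.399% of all counts in the indomethacin libraries and 0.437%, 0.409% and 0.416% in the control libraries. Their summed level was 3849 ± 308 CPM with indomethacin and 4280 ± 223 CPM in control (mean ± SD, n = 3), and indomethacin replicate 3, at 4202 CPM, lay above control replicate 2, at 4056 CPM. NPM1, which did not pass the test, was the largest part of that sum in every library. Without it the sum was 2175, 2207 and 2468 CPM with indomethacin and 2962, 2786 and 2906 CPM in control, and the groups did not overlap. Within the indomethacin group, replicate 3 held the highest value of 32 of the 54 members, against 37.8% of all genes tested. Within the control group, replicate 2 held the lowest value of 30 members, against 31.8% of all genes.

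The promoters of 3 members that fell are shown, the 3 with the smallest adjusted p among members that fell and carry the E-box CACGTG. They are RefSeq windows on GRCh38.p14 from 250 bases before to 50 bases after the annotated start, given 5′ to 3′ on the gene's strand, with the E-box in capitals.
MRTO4: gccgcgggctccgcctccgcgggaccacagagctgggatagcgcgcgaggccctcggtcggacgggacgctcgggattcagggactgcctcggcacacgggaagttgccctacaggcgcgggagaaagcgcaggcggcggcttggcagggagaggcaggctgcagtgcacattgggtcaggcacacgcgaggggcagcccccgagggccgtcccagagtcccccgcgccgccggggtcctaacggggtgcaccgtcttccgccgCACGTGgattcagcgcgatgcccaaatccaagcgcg
UTP20: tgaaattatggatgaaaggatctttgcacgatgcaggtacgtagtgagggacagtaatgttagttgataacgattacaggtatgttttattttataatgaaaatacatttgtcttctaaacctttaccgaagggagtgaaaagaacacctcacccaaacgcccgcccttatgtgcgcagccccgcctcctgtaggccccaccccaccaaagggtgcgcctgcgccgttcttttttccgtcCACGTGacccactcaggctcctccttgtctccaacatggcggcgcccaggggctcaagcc
LTV1: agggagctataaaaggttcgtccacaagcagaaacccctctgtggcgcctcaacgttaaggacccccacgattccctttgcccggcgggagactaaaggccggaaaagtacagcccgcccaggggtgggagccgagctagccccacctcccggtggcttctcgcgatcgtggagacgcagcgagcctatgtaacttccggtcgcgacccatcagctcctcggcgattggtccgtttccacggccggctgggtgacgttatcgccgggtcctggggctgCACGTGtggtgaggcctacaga
The MRTO4 window is chr1:19251555-19251854, the UTP20 window chr12:101279855-101280154 and the LTV1 window chr6:143843088-143843387, all on the plus strand. The E-box begins 14 bases downstream of the start base in MRTO4, 10 bases upstream of it in UTP20 and 28 bases downstream of it in LTV1.

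RefSeq windows were matched for 45 of the 54 members. CACGTG, which reads the same on both strands, was in 16 of them (35.6%), against 7.27% of 27305 promoters of the same length and 9.36% of the 11111 promoters of genes tested here. Of the 16 members with the motif, 9 fell, 0 rose and 7 did not pass (median log2 fold change -0.51). Of the 29 without it, 17 fell, 4 rose and 8 did not pass (median -0.43). Among all genes tested 31.0% were called lower and 30.6% higher, with a median of 0.04. The letters CCGGAAG, a core bound by ETS factors, were on either strand of 16 member windows (35.6%), against 18.6% of promoters of genes tested. The NRF1 motif, searched as its 10-base palindrome, was in 4 (8.89%, against 2.19%), and CCAAT, on either strand, was in 20 (44.4%, against 36.4%). No test was made of these shares, and by their letters matches of different motifs can have at most 1 base in common.

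Both catalytic core genes of Pol I fell, while a shared scaffold gene and an initiation factor gene rose. Of 11 genes of the enzyme and its factors, 6 fell (54.5%) and 2 rose (18.2%), with a median of -0.38. All genes tested gave 31.0% lower and 30.6% higher. POLR1A and POLR1B encode the largest and second largest subunits, which together form the active site. POLR1A (ENSG00000068654, chromosome 2, 86020216 to 86106155, minus strand) had 33.4, 25.1 and 23.6 CPM in the indomethacin libraries, against 53.7, 53.5 and 57.8 CPM in the control libraries. POLR1B (ENSG00000125630, chromosome 2, 112541915 to 112579818, plus strand) had 30.8, 27.7 and 24.8 CPM with indomethacin, against 56.8, 58.3 and 58.5 CPM in control. Every indomethacin library lay below every control library for both, with log2 fold changes of -1.01 (SE 0.13, edgeR adjusted p = 1.6e-05) and -1.06 (SE 0.11, edgeR adjusted p = 1.9e-06). POLR1F, a subunit of the stalk, fell by 0.84 on the log2 scale. POLR1G, part of the subcomplex that helps the enzyme initiate and elongate, had 3.33, 3.88 and 2.76 CPM with indomethacin, against 6.67, 7.64 and 9.34 CPM in control (log2 fold change -1.24, SE 0.21). Of the exonic bases of POLR1G, 49.8% are shared with the neighbour ERCC1, and its value comes from the rest.

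Its partner in that subcomplex, POLR1E, was at 18.2, 18.3 and 23.5 CPM with indomethacin and 17.8, 20.3 and 23.9 CPM in control, and the groups overlapped (log2 fold change -0.05, edgeR adjusted p = 0.77). POLR1H, which helps Pol I cleave its RNA and terminate, did not pass either (0.00, SE 0.17), nor did POLR1C (-0.14, SE 0.12). POLR1C and POLR1D form a scaffold that Pol I shares with Pol III, the enzyme of tRNA and 5S rRNA. POLR1D rose, with 108, 118 and 134 CPM in the indomethacin libraries and 79.4, 75.3 and 70.3 CPM in the control libraries (log2 fold change 0.68, SE 0.11, edgeR adjusted p = 0.00011). Per unshared kilobase, the level of POLR1A relative to POLR1D was 0.175, 0.121 and 0.0996 with indomethacin, against 0.384, 0.404 and 0.467 in control. POLR1A fell and POLR1D rose, so their ratio had to fall and adds no separate evidence. Every pair of genes given as a ratio here was chosen after its values were seen, and no ratio was tested.

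Among the initiation factors, UBTF, which bends and opens ribosomal DNA, had 42.3, 50.9 and 44.4 CPM with indomethacin and 64.1, 61.4 and 72.7 CPM in control (log2 fold change -0.53, SE 0.11). RRN3, which links Pol I to its promoter, had the highest level per length in the group as a mean of both conditions. With indomethacin alone TAF1D was higher (17.7 against 13.9 CPM per unshared kilobase). RRN3 was at 55.0, 51.7 and 66.3 CPM with indomethacin and 75.0, 76.3 and 74.2 CPM in control. That was a log2 fold change of -0.38 (SE 0.11, edgeR adjusted p = 0.0089), and without indomethacin replicate 2 the adjusted p was 0.052. RRN3 has 4 named pseudogenes, with 2335 counts over the 6 libraries against 8201 for RRN3 itself. TAF1D, a subunit of SL1, rose, with 108, 113 and 133 CPM in indomethacin libraries against 80.7, 77.7 and 67.7 CPM in control libraries (log2 fold change 0.65, SE 0.12, edgeR adjusted p = 0.00024). TAF1D is also a snoRNA host gene, and 16.5% of its exonic bases are shared with other genes.

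**Figure D2:**
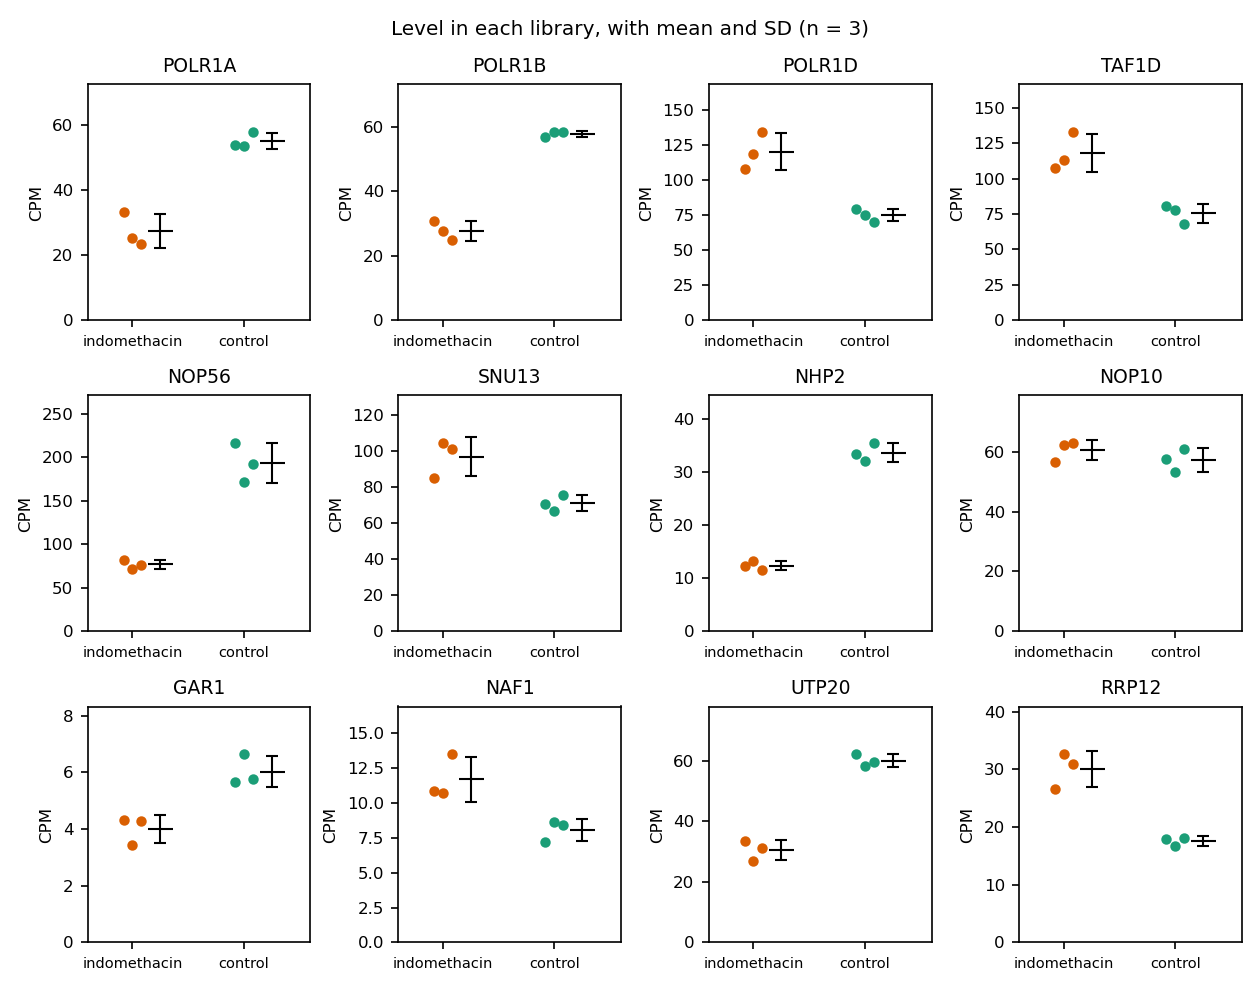
Level (CPM, vertical axis from 0) of 12 members in each library, indomethacin left and control right, with the mean and SD (n = 3) as black bars. POLR1A, POLR1B, NOP56, NHP2, GAR1 and UTP20 lie lower with indomethacin and POLR1D, TAF1D, SNU13, NAF1 and RRP12 higher, without overlap between groups, while NOP10 overlaps.

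The proteins that work with snoRNAs held the 2 largest falls of all members, those of NHP2 and NOP56. Of 10 such proteins, 7 fell and 2 rose (median -0.58), against 31.0% of all genes tested called lower and 30.6% called higher. NHP2, a core protein of box H/ACA particles and of telomerase (ENSG00000145912, chromosome 5, 178149463 to 178153894, minus strand), had 12.4, 13.2 and 11.6 CPM in the indomethacin libraries, against 33.3, 32.1 and 35.5 CPM in the control libraries. Its log2 fold change was -1.44 (SE 0.12, edgeR adjusted p = 1.9e-07). RMND5B, on the other strand, shares part of its exons, so 28.9% of its bases did not count toward this value. DKC1, the pseudouridine synthase, had 43.3, 41.8 and 45.6 CPM with indomethacin against 89.1, 88.8 and 87.4 CPM in control (log2 fold change -1.02, SE 0.10). The SD was 1.91 CPM with indomethacin and 0.93 CPM in control, so the groups of DKC1 stood far apart.

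GAR1, the H/ACA protein that completes the mature particle, was scarce, at 4.33, 3.43 and 4.27 CPM with indomethacin and 5.64, 6.65 and 5.77 CPM in control (log2 fold change -0.59, SE 0.19, edgeR adjusted p = 0.017). That call was lost without control replicate 2 or without indomethacin replicate 2, with adjusted p up to 0.070. NAF1, the assembly factor that holds the place of GAR1 in the immature particle, moved the other way, with 10.8, 10.7 and 13.5 CPM in indomethacin libraries and 7.16, 8.62 and 8.44 CPM in control libraries (log2 fold change 0.53, SE 0.16, edgeR adjusted p = 0.011). The NAF1 call was lost without control replicate 1 and with no filter on low counts, again with adjusted p up to 0.070. Per unshared kilobase, GAR1 relative to NAF1 was 0.971, 0.781 and 0.768 with indomethacin, against 1.92, 1.88 and 1.66 in control.

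NOP10, the smallest H/ACA protein, did not pass (log2 fold change 0.08, SE 0.10, edgeR adjusted p = 0.52). It had 56.6, 62.1 and 63.0 CPM with indomethacin and 57.4, 53.2 and 61.0 CPM in control, and the groups overlapped. With only 507 annotated exonic bases, NOP10 had the second highest level per length of all members, at 119 CPM per kilobase with indomethacin and 113 in control. NHP2 relative to NOP10, per unshared kilobase, was 0.109, 0.105 and 0.0915 with indomethacin, against 0.288, 0.300 and 0.289 in control. DKC1 relative to NOP10 was 0.0982, 0.0863 and 0.0928 with indomethacin, against 0.199, 0.214 and 0.184 in control. These pairs of genes were chosen after their values were seen, and their ratios were not tested.

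In the box C/D particle the partners also parted. NOP56, one of its paired core proteins (ENSG00000101361, chromosome 20, 2652593 to 2658393, plus strand), had 82.4, 72.2 and 76.2 CPM with indomethacin, against 217, 171 and 192 CPM in control (log2 fold change -1.33, SE 0.11, edgeR adjusted p = 2.8e-07). NOP58, its paralog in the same particle, had 42.3, 45.2 and 48.5 CPM with indomethacin against 65.8, 54.6 and 57.4 CPM in control, a smaller change of -0.39 (SE 0.11). FBL, the methyltransferase, was at 38.7, 46.4 and 61.0 CPM with indomethacin and 72.1, 67.6 and 75.8 CPM in control (-0.56, SE 0.14). The indomethacin libraries of FBL were spread, yet all lay below the lowest control library. SNU13, which binds the snoRNA first and also serves the U4 snRNA of the spliceosome, rose, with 84.8, 105 and 101 CPM in indomethacin libraries against 70.4, 66.9 and 75.6 CPM in control libraries (log2 fold change 0.45, SE 0.11, edgeR adjusted p = 0.0030). NOP56 relative to SNU13, per unshared kilobase, was 0.616, 0.438 and 0.477 with indomethacin, against 1.95, 1.62 and 1.61 in control. This pair too was chosen after its values were seen, and its ratio was not tested.

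NOLC1, a chaperone that moves snoRNA particles between Cajal bodies and nucleoli (ENSG00000166197, chromosome 10, 102152176 to 102163871, plus strand), had 51.8, 43.5 and 55.9 CPM with indomethacin against 115, 111 and 118 CPM in control. Its log2 fold change was -1.19 (SE 0.11, edgeR adjusted p = 7.2e-07). The snoRNAs themselves could hardly be read in these libraries. Within the spans and on the strand of 10 members lay 36 snoRNA genes, and the 15 that sit wholly in annotated exons of their host had 0 counts in every library. The 16 outside host exons had 5 to 90 counts over the 6 libraries, and 3 could be tested. SNORD6 in TAF1D (-0.15), SNORD11 in NOP58 (-0.14) and SNORD19C in GNL3 (0.25) did not pass (edgeR adjusted p from 0.66 to 0.80), with few counts behind each value.

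**Figure D3:**
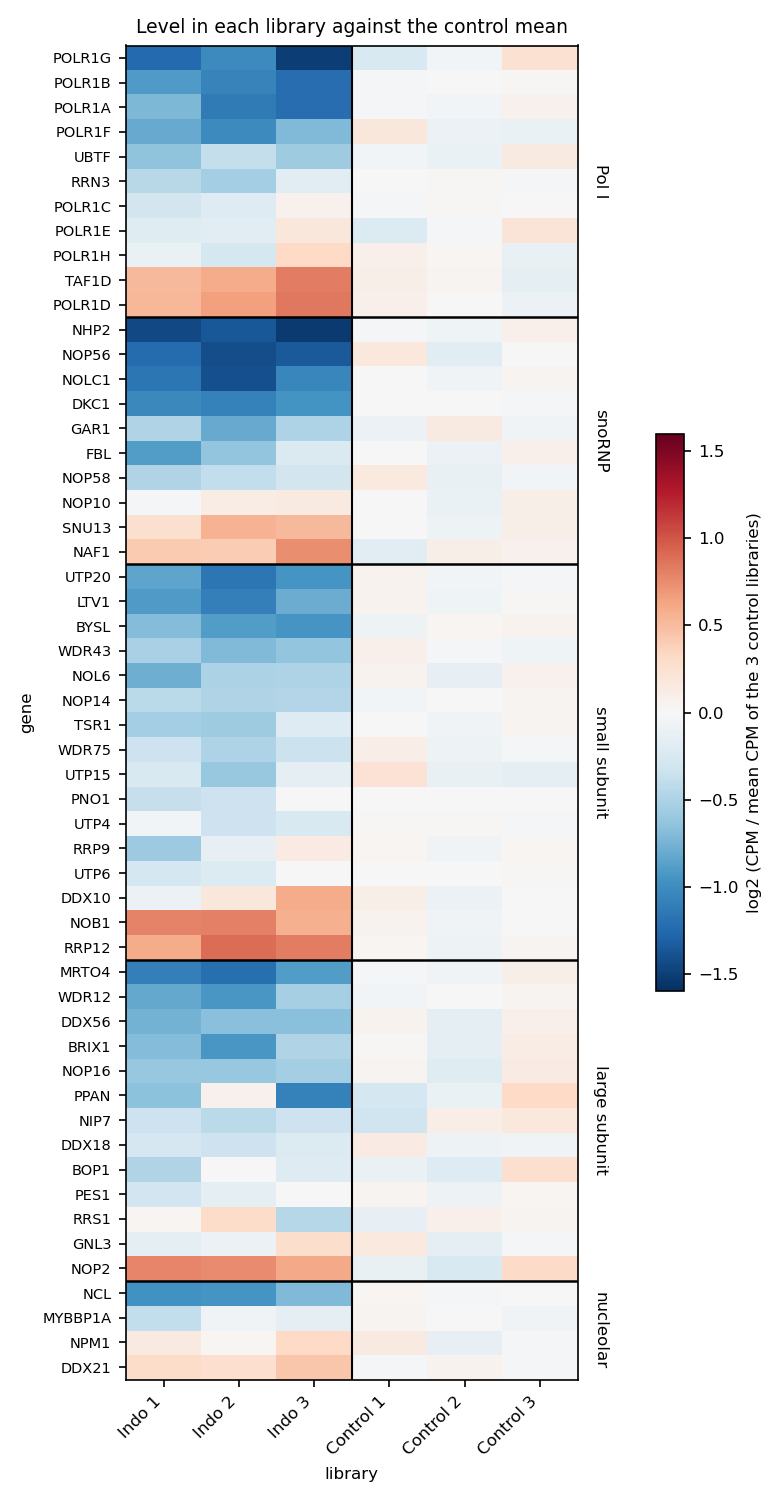
Level of each member in each library as log2 of its CPM over the mean of the 3 control libraries (blue lower, red higher), indomethacin libraries left and control libraries right, members ordered by log2 fold change within each role. Blue fills most rows of the indomethacin libraries, and POLR1D, TAF1D, SNU13, NAF1, NOB1, RRP12, NOP2, DDX21 and NPM1 are red in all 3 of them.

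Of 16 small subunit factors, 8 fell and 2, NOB1 and RRP12, rose (median -0.35). The background was 31.0% of all genes tested called lower and 30.6% called higher. UTP20, a giant scaffold of the SSU processome (ENSG00000120800, chromosome 12, 101280105 to 101386618, plus strand), had 33.4, 26.8 and 31.1 CPM with indomethacin, against 62.3, 58.4 and 59.5 CPM in control (log2 fold change -0.98, SE 0.11, edgeR adjusted p = 4.3e-06). WDR43, which joins the processome with the 5′ end of the precursor and had the highest level per length in the group, had 84.0, 73.8 and 77.7 CPM with indomethacin against 127, 119 and 115 CPM in control (-0.61, SE 0.10). The groups of both genes were well apart. WDR75 (-0.39), NOL6 (-0.59) and NOP14 (-0.46), which also build the processome, fell as well. NOP14 shares 20.7% of its exonic bases with other genes, chiefly NOP14-AS1.

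Other processome genes did not pass. UTP4, UTP6, UTP15, the U3 snoRNA protein RRP9 and the helicase gene DDX10 had log2 fold changes from -0.32 to 0.25. UTP4 was lower in every indomethacin library (20.6, 17.0 and 18.0 CPM) than in any control library (21.5, 21.5 and 20.8 CPM), though by little (-0.20, SE 0.12, edgeR adjusted p = 0.17). DDX10 had 32.7, 39.7 and 52.6 CPM with indomethacin and 37.3, 32.8 and 34.7 CPM in control, so indomethacin replicate 3 stood high and replicate 1 lay just below the lowest control library. UTP15 passed without control replicate 3 or indomethacin replicate 3 and with no filter on low counts, and DDX10 without indomethacin replicate 1 and with upper-quartile factors.

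Late factors of the small subunit went both ways. LTV1, which is carried on the pre-ribosome into the cytoplasm, had 9.60, 8.403 and 10.4 CPM with indomethacin, against 18.6, 17.1 and 18.2 CPM in control (log2 fold change -0.93, SE 0.14, edgeR adjusted p = 4.9e-05). BYSL, needed for the maturation of small subunit precursors, had 8.27, 7.21 and 6.97 CPM with indomethacin against 12.6, 13.6 and 13.8 CPM in control (-0.83, SE 0.15), and TSR1, a GTPase-like factor, changed by -0.43 (SE 0.12). PNO1, the partner of NOB1, did not pass (-0.22, SE 0.14, edgeR adjusted p = 0.20), but did without indomethacin replicate 3. NOB1 is the nuclease that makes the final cut of 18S rRNA. It rose, with 29.2, 29.5 and 24.995 CPM in the indomethacin libraries and 17.6, 16.2 and 16.8 CPM in the control libraries (0.73, SE 0.12, edgeR adjusted p = 0.00013).

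RRP12, an export factor of the pre-ribosome (ENSG00000052749, chromosome 10, 97356358 to 97426076, minus strand), rose most of all members that passed. It was at 26.6, 32.7 and 31.0 CPM with indomethacin and at 18.0, 16.7 and 18.2 CPM in control (log2 fold change 0.77, SE 0.12, edgeR adjusted p = 8.7e-05). Its lowest indomethacin library lay above its highest control library. LTV1, TSR1 and NOB1 share 34.7%, 23.9% and 20.4% of their exonic bases with other genes, and their values come from the unshared bases.

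Over all genes tested 31.0% were lower and 30.6% higher. Of the 13 large subunit factors 7 fell (53.8%) and none rose (median -0.37, range -1.06 to 0.72). The highest of these values belongs to NOP2, which did not pass. MRTO4, a mimic of the stalk protein P0 that holds its place on the pre-ribosome (ENSG00000053372, chromosome 1, 19251805 to 19260128, plus strand), had 19.5, 18.0 and 22.4 CPM with indomethacin, against 40.6, 40.1 and 44.3 CPM in control. Its log2 fold change was -1.06 (SE 0.12, edgeR adjusted p = 3.5e-06). The helicase gene DDX56 had 37.3, 39.6 and 39.5 CPM with indomethacin and 65.5, 56.4 and 66.9 CPM in control (-0.70, SE 0.11). The nucleolar factor genes BRIX1 (-0.69) and NOP16 (-0.58), NIP7 (-0.37) and the helicase gene DDX18 (-0.27) fell less. NIP7 lost its call under 5 alternatives and DDX18 under 4, including upper-quartile factors for both, with adjusted p up to 0.13 and 0.21.

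PES1, BOP1 and WDR12 form the PeBoW complex, which is needed to mature the 28S and 5.8S rRNAs, and only WDR12 passed. WDR12 had 20.1, 18.6 and 24.6 CPM with indomethacin, against 34.7, 35.6 and 36.5 CPM in control (log2 fold change -0.76, SE 0.12, edgeR adjusted p = 0.00012). PES1 had 45.2, 50.2 and 55.6 CPM with indomethacin and 57.8, 53.1 and 57.2 CPM in control (-0.16, SE 0.11), and BOP1 had 19.8, 27.6 and 23.9 CPM with indomethacin and 25.6, 23.9 and 33.2 CPM in control (-0.21, SE 0.15). The groups of both overlapped. WDR12 relative to PES1, per unshared kilobase, was 0.227, 0.190 and 0.226 with indomethacin, against 0.306, 0.342 and 0.326 in control. That pair was likewise chosen after its values were seen, and its ratio was not tested.

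GNL3 (nucleostemin), a nucleolar GTP-binding protein of proliferating cells, had 103, 107 and 139 CPM with indomethacin and 126, 103 and 113 CPM in control. The ranges covered each other, and the log2 fold change was 0.03 (SE 0.13, edgeR adjusted p = 0.87). RRS1, which brings the 5S RNA particle to the large subunit, was at 0.00 (SE 0.20). NOP2, a methyltransferase of 28S rRNA, and PPAN were poorly counted, with 146 and 315 counts over all 6 libraries. Other genes cover 54.4% of the exonic bases of NOP2 and 49.2% of those of PPAN, for PPAN mostly the PPAN-P2RY11 readthrough gene. NOP2 had 1.57, 1.54 and 1.38 CPM with indomethacin and 0.834, 0.768 and 1.13 CPM in control (log2 fold change 0.72, SE 0.33, edgeR adjusted p = 0.069), so it did not pass although its groups did not overlap. It did pass with upper-quartile factors and with the filter of 1 CPM (adjusted p between 0.038 and 0.25 over the alternatives), and PPAN passed, lower, without indomethacin replicate 2.

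The 4 general nucleolar proteins differed from each other. NCL (nucleolin), which binds precursor rRNA (ENSG00000115053, chromosome 2, 231453531 to 231483641, minus strand), had 159.9, 164 and 192 CPM with indomethacin, against 320.2, 306 and 314 CPM in control (log2 fold change -0.87, SE 0.11, edgeR adjusted p = 9.2e-06). NPM1 (nucleophosmin), a histone chaperone and scaffold of the outer nucleolus, had 1537, 1427 and 1734 CPM with indomethacin and 1540.3, 1270.2 and 1375 CPM in control, and the groups overlapped (0.17, SE 0.13). NPM1 has 49 named pseudogenes with 8135 counts against its own 180387, and how reads that map to several places were treated is not given in the sources used here. DDX21, a helicase that acts in Pol I transcription and rRNA processing, rose, with 262, 257 and 291 CPM in the indomethacin libraries against 210.1, 222 and 208 CPM in the control libraries (0.34, SE 0.10, edgeR adjusted p = 0.010). That call was lost without control replicate 1 or 3 and with no filter on low counts (adjusted p up to 0.13). MYBBP1A, a nucleolar repressor of Pol I, had 25.3, 32.0 and 30.0 CPM with indomethacin and 34.2, 33.4 and 32.0 CPM in control, and did not pass (-0.19, SE 0.12, edgeR adjusted p = 0.17).

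**Figure D4:**
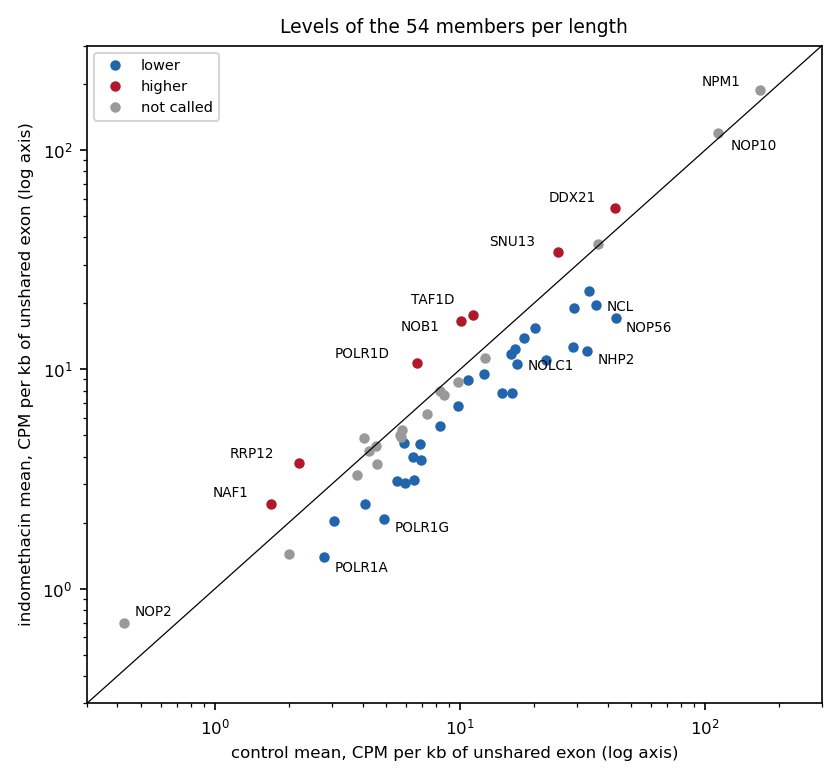
Mean level of each member with indomethacin (vertical) against control (horizontal), in CPM per kilobase of exon not shared with another gene, both on log axes, with the line of equal levels. NPM1 and NOP10 are highest and NOP2 lowest in both groups; blue points fell, red points rose and grey points did not pass.

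Per length the members spanned a wide range, and the order shifted with indomethacin. Length here merges all annotated exons of a gene and is not that of a transcript, so ranks between genes depend on the annotation. NPM1 led both groups, at 188 CPM per unshared kilobase with indomethacin and 168 in control, and NOP10 came second. NOP56, DDX21 and GNL3 followed in control, at 43.2, 42.9 and 36.7 CPM per kilobase, and the values of NOP56 and DDX21 differed by less than the spread of NOP56. With indomethacin the order was DDX21 (54.3), GNL3 (37.4) and SNU13 (34.1), and NOP56, at 17.2, stood at rank 10. The least abundant was NOP2, at 0.701 CPM per unshared kilobase with indomethacin and 0.425 in control. POLR1A, with 19694 annotated exonic bases, was next with indomethacin (1.39, against 2.79 in control).

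Other genes of the pathway, from lists that hold no member, numbered 138, of which 137 were tested. Of these 78 fell (56.9%) and 12 rose (8.76%), with a median of -0.34. The shares over all genes tested, 31.0% lower and 30.6% higher, are the background for each list. Among 43 other small subunit factors 25 fell and 3 rose. NOL11, which links the processome to Pol I transcription, had 31.0, 29.3 and 30.3 CPM with indomethacin against 76.7, 63.0 and 67.7 CPM in control (-1.19, SE 0.11), and RIOK3, a late kinase, had 135, 131 and 140.5 CPM with indomethacin against 57.8, 61.6 and 49.96 CPM in control (1.26, SE 0.11). Of 49 other large subunit factors 24 fell and 6 rose. RRP1B changed by -1.08 and NMD3, the adaptor for nuclear export of the large subunit, by 0.61. Of 10 genes that assemble snoRNA particles 7 fell and none rose, led by RUVBL1, an ATPase of the R2TP complex, with 27.1, 22.6 and 24.4 CPM with indomethacin against 71.5, 64.8 and 71.0 CPM in control (-1.48, SE 0.11).

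The exosome and other rRNA trimming enzymes gave 18 falls and 1 rise among 25 tested. For this list and those below, the background was 31.0% of all genes tested lower and 30.6% higher. POP1, a subunit of RNase MRP and RNase P, had 5.23, 6.07 and 6.37 CPM with indomethacin against 24.1, 24.9 and 29.8 CPM in control (log2 fold change -2.16, SE 0.15, edgeR adjusted p = 2.9e-08), a larger change than that of any member. EXOSC1, an exosome cap protein, was the 1 that rose (0.27, SE 0.11, edgeR adjusted p = 0.046). It lost that call with DESeq2, RLE factors, no filter or the replicate block, and without control replicate 1, 2 or 3 or indomethacin replicate 2 or 3 (adjusted p up to 0.40). Of 10 further Pol I genes, 5 of them subunits shared with Pol II and Pol III, 4 fell and 2 rose, with POLR2L at -1.77 and POLR2H at 0.58. The groups of POLR2H overlapped, with 42.0, 55.9 and 69.1 CPM with indomethacin and 33.3, 35.4 and 42.6 CPM in control. For comparison, 4 of 7 Pol II subunits fell and none rose (median -0.44, POLR2D at -0.995). Of 11 Pol III subunits 5 fell and 3 rose (median -0.26), with POLR3K at -1.55 and POLR3D at 0.99. The shares of Pol I genes called were not tested against those of Pol II or Pol III.

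**Figure D5:**
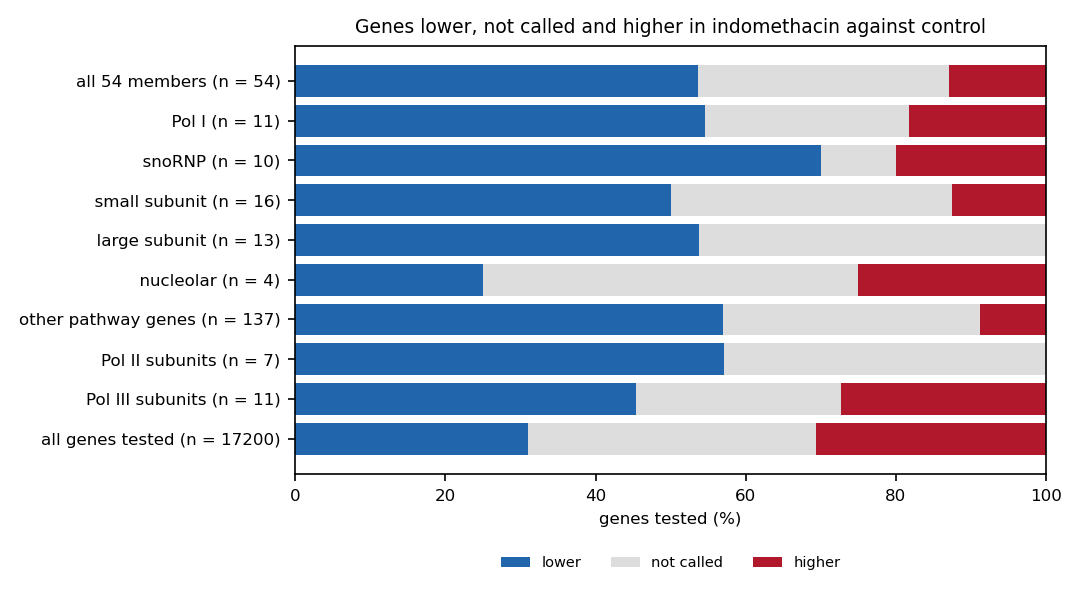
Share of the genes tested in each list (horizontal axis, percent) that were lower (blue), not called (grey) or higher (red) with indomethacin. Of all 54 members 53.7% were lower and 13.0% higher, against 31.0% and 30.6% of all genes tested.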

How the data were processed

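Total RNA of AGS cells was depleted of ribosomal RNA, made into stranded libraries and sequenced paired-end (NovaSeq), per the labels' protocols. bcl2fastq, FastQC 0.11.7, cutadapt 1.16, HISAT2 2.1.0, SAMtools, featureCounts and DESeq2 are named with build hg38, per the submitters' processing notes, without order or settings. Each deposited table holds raw counts per gene for 1 library, with exon coordinates, strand and length, per the file headers. The annotation release was not given in the sources used here. Of 60607 lines 3 belonged to 1 broken record and were left out.

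Of 537 genes of 200 bases or more that lie wholly in exons of the opposite strand, 1 had a count, against 35 of 516 that lie wholly in exons of the same strand and 23533 of 35752 genes without overlap. Fragments on bases that genes share were thus mostly not counted, on either strand. Counting appears to have ignored strand although the kit keeps it, so a gene's count can include antisense fragments. Exonic bases were shared by 32 of the 54 members, and by over 10% in 15, and levels per length use the unshared bases. For levels between genes, CPM was divided by kilobases of unshared exon, with all annotated exons of a gene merged.

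Counts were filtered with filterByExpr, scaled by TMM and tested over 17200 genes with edgeR 4.0.16 (R 4.3.3, glmQLFit and glmQLFTest, group as the only term), adjusted by Benjamini-Hochberg over all of them, threshold 0.05. Standard errors are those implied by the test statistic. The fit was also run on simulated data with few genes changed and the same spread for all genes, unlike these data. Its outcome is not given here, and no result rests on it. Between replicates of 1 group, chi-square over degrees of freedom was 7.91 to 25.9, so none repeats another. Gene names were matched by Ensembl identifier, gene types from GENCODE 29 and promoters from RefSeq. Values in every library are given, in each of 5 groups by role, for the 3 members with the smallest adjusted p, those that passed against the direction of most, and the most abundant per length. Others given in full were chosen after their values were seen. Of the other lists, the member with the smallest adjusted p in each direction is named. The members and lists were chosen with earlier results of these data known. The alternatives were limma-voom (limma 3.58.1), DESeq2 1.42.0, RLE or upper-quartile factors, libraries stripped of mitochondrial and small structured RNAs, no filter, a filter of 1 CPM in 3 libraries, a block for replicate number, and leaving out each library. A 2-fold threshold was applied apart from these, to the numbers of genes called only. Protein sequences were not used here.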

Additional observations from a re-analysis of the deposited data

How the results depend on the processing

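Over the 14 alternatives, the 2-fold threshold not among them, 30 of the 36 called members kept their call and direction under every one. Of the 18 uncalled members, 13 were never called. No called member changed direction. A 2-fold threshold left 8 members lower and 0 higher, 16 and 1 of the other pathway genes, and 2676 and 2999 of all genes. Upper-quartile factors raised the median of all genes by 0.12, to 0.16, and split all calls into 6124 higher and 4686 lower. The members' median was -0.27 with these factors and -0.49 with no filter on low counts, where the median of all genes was higher by 0.15. It stood 0.43 below that of all genes with TMM and with upper-quartile factors alike (differences of -0.43 and -0.43). Leaving out 1 library gave 26 to 31 members lower, 5 to 8 higher, and medians from -0.44 to -0.34. The same fits called 4938 to 5471 of all genes lower and 4635 to 5139 higher, of 17746 to 18227 tested. Deviations of same-numbered libraries from their group means had correlations of 0.02, 0.01 and 0.13. Those of differently numbered libraries ran from -0.14 to 0.13. With 3 libraries per group this cannot decide whether the numbers mark pairs, and no label states it. With the replicate number as a block 29 members were lower and 7 higher, against 5352 and 5249 of all 17200 genes tested. Without the 15 members that share over 10% of exonic bases, chosen after seeing the data, 21 were lower and 5 higher. The background for these counts was 31.0% of all genes tested lower and 30.6% higher. Members with few counts, NOP2 and PPAN above all, are limited by depth.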

Other observations

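MYC, which is no member but encodes a factor known to bind CACGTG, had 133, 152 and 109 CPM in the indomethacin libraries, against 75.5, 60.3 and 57.1 CPM in the control libraries (log2 fold change 1.03, SE 0.14, edgeR adjusted p = 2.2e-05). Of the 16 members with CACGTG in the promoter window 9 fell, against 17 of the 29 without it and 31.0% of all genes tested, and no difference between members with and without the motif was tested. Whether MYC protein or its binding differed was not measured here.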
